A study of Mus musculus with 4 samples.

Results

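A set of 8 mouse genes that recognise or act on double-stranded RNA was followed in differentiating C2C12 myoblasts exposed to interferon-gamma (IFN-γ): 3 cytosolic helicase sensors (Ddx58, also called Rigi, Ifih1 and Dhx58), the endosomal receptor Tlr3, the adaptor Mavs, the kinase Eif2ak2, the editing enzyme Adar and the nucleic acid binding protein Zbp1. All probes on the array whose transcript belonged to 1 of these genes were kept, which gave 12 probes of 8 genes among 39429 probes, 26055 of them with a gene symbol and 19751 genes in all. Ddx58, Ifih1, Adar and Zbp1 had 2 probes each, and the other 4 genes had 1 each. The treated cells were C2C12, an established mouse line derived from 1 clone of muscle satellite cells, on day 3 of myogenic differentiation with 1 ng/ml IFN-γ, and the control cells were C2C12 at the same day without the cytokine. Both carried no other genetic change or agent named in the labels, which give the horse serum of the differentiation medium as 2% in 1 place and 10% in another. Each of 4 two-colour Agilent arrays held treated RNA in Cy5 and control RNA in Cy3. The treated samples are called biological replicates, but the labels do not say from how many cultures the control RNA came. The p-values therefore reflect only array-to-array spread, which may be technical in part.

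Cells meet double-stranded RNA mainly as a product of viral replication. RIG-I (Ddx58) and MDA5 (Ifih1) bind it in the cytosol and signal through the mitochondrial adaptor MAVS, LGP2 (Dhx58) lacks the signalling domain of the other helicases and tunes them, and TLR3 detects it in endosomes through a separate adaptor, TRIF. PKR (Eif2ak2) halts translation by phosphorylating eIF2 alpha, ADAR1 (Adar) converts adenosine to inosine in double-stranded RNA and so keeps cellular RNA from being sensed, and ZBP1 binds left-handed double helices and can start cell death through RIPK3. Many of these genes are known interferon-stimulated genes. Interferons of type I act on such genes largely through the interferon-stimulated response element (ISRE), and IFN-γ through the gamma-activated site (GAS) and through IRF1, which binds ISRE-like sequences.

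The start regions of these genes are shown because the letters of those elements can be looked for in them. RefSeq windows of 300 bases around the annotated start, on GRCm38.p6, were at hand for 6 of the 8 genes in 8 windows, 3 of them for Adar. The ISRE core was searched as GAAA, any 2 bases and GAAA again, and the GAS as TTCNNNGAA, on both strands, with overlaps allowed. In the lines that follow, each 30 bases long and on the gene's strand, capitals mark the ISRE core match, and positions count from 0 at the annotated first base of the transcript.
Ifih1, chr2:62646206-62646235, minus strand: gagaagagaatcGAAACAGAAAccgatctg
Ddx58, chr4:40239804-40239833, minus strand: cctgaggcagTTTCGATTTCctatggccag
Eif2ak2, chr17:78882535-78882564, minus strand: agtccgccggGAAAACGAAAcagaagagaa
Tlr3, chr8:45410420-45410449, minus strand: agtgaatggcTTTCACTTTGtttagacaca
Adar, start 3, chr3:89730738-89730767, plus strand: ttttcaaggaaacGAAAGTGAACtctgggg
The first 3 hold the core as written. The match of Ifih1 ran from base 32 to base 41, that of Ddx58 from base 2 to base 11 on the opposite strand and that of Eif2ak2 from base 18 to base 27, so all 3 lay just inside the annotated transcript. Of all 32851 windows in the table, 3.44% held such a match. The capitals of Tlr3, from base -59 to base -50 on the opposite strand, and of the third Adar start, from base 33 to base 42, depart from the core by 1 letter. Searching with 1 of the 8 fixed letters free, a choice made after the data were seen, gave a match in 6 of the 8 windows, against 35.4% of all windows. The single Mavs window and the first Adar window held neither. The GAS letters occurred in the Eif2ak2 window, from base -178 to base -170, and in the third Adar window, from base 22 to base 30, against 8.3% of all windows. A match is a run of letters and not a measured binding site.

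IFN-γ raised 7 of the 8 genes on at least 1 probe, and Mavs did not pass the test. Of the 12 probes, 11 were higher at an adjusted p under 0.05 (limma, adjusted over 28921 tested probes), against 16.5% of tested probes called higher and 12.6% called lower. Dhx58, Tlr3 and the second Ifih1 probe entered the test only through the treated channel, where they were high. Of the 9 probes well above background in both channels on every array, 8 were higher, against 18.8% of 21736 such probes. At least 2-fold higher were 8 of the 12 probes, which belonged to 6 genes, against 1.45% of tested probes, while 1.12% were at least 2-fold lower. These 8 include Dhx58. Of the 9 probes above background in both channels, 7 were at least 2-fold higher, and the share over all such probes is not given. The median log2 ratio of treated over control was 1.30 over the 12 probes, 1.41 over those 9 and 0.01 over all tested probes. Each value below is such a log2 ratio after background correction with an offset of 50 and loess normalisation, unless another unit is named. Where normalised channel values are said to overlap or not, the share over all probes is not given, so this is description only. The offset shrinks the ratio of dim spots, so the ratio that Agilent's Feature Extraction computed from its own processed signals is given beside it for every probe where the difference exceeds the SD over arrays.

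**Figure D1:**
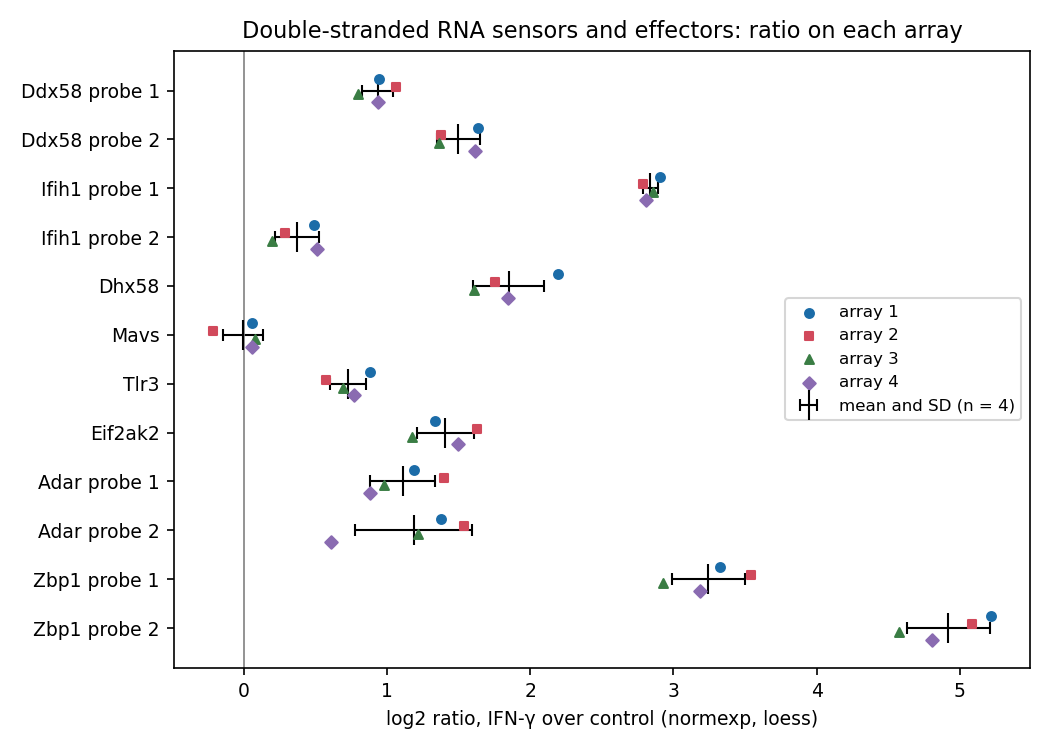
Log2 ratio of IFN-γ over control (x axis) for each of the 12 probes (y axis), with 1 symbol per array and the mean with its SD over 4 arrays in black. The 2 Zbp1 probes and the first Ifih1 probe lie farthest to the right, between 2.79 and 5.22, and Mavs is the probe whose arrays fall on both sides of 0.

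All 4 arrays lay on 1 slide and none had the dyes reversed, so a dye bias of a probe and the effect of treatment cannot be told apart. The median spot reached 149.5 to 264 in treated RNA and 79.8 to 97 in control RNA. Between 28548 and 30148 probes in the treated channel and between 22453 and 25905 in the control channel were well above background. Replicate 2 correlated least with the other arrays, with a mean r of 0.615 across tested probes, against 0.758 to 0.810 for the others. Without replicate 2 the same number of probes of the 8 genes, 11, was called higher. Of 10 myogenic marker genes, all 10 were above background in both channels on every array. Of these, 1 (Myf5) rose, 4 fell (Des, Ckm, Myh3 and Tnnt3) and 5 did not pass. Of 7 tested leukocyte markers, 1 (Cd14) rose, 2 fell (Csf1r and Cd3e) and 4 did not pass. On every array, 5 of these 7 were above background in the control channel and all 7 in the treated channel. The pan-leukocyte gene Ptprc had 0.01, with control spots above background on 1 of 4 arrays. Of 4 tested fibroblast markers, 3 rose, Pdgfra by 0.67 ± 0.17, Col1a1 by 0.46 ± 0.29 and Lum by 0.34 ± 0.21, while Dcn had 0.04 ± 0.35, and all 4 were above background in both channels on every array. Of 3 tested endothelial markers, Kdr fell, at -1.02 ± 0.28, and 2 did not pass. The part of other cells in these ratios was not tested. In such bulk RNA, a change in RNA per cell and a change in the number of cells of a kind cannot be told apart.

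The cytosolic sensor Ifih1, which favours long double-stranded RNA, rose on both of its probes. The size was measured on the first and was uncertain on the second. The first probe had median spot intensities of 5187, 2866, 5897 and 4920 in treated cells on arrays 1 to 4, against 186, 131, 126 and 163 in control cells. After normalisation every treated value still lay above every control value, with log2 means of 11.19 and 8.35. Its log2 ratios were 2.90, 2.79, 2.85 and 2.81, with a mean of 2.84 ± 0.05 (SD, n = 4), a 7.16-fold rise with an adjusted p of 9.72e-06 (limma). This was the smallest SD of the 12 probes, whose median SD was 0.18, and only 0.367% of tested probes had a higher mean. With Feature Extraction's ratio this probe had 3.30 ± 0.04 (SD, n = 4), a 9.88-fold rise. The second probe lay close to background, with treated intensities of 96, 66, 110 and 95, against 40, 40, 44.5 and 39 in control cells, where it was not well above background on any array. Its log2 ratios were 0.49, 0.29, 0.20 and 0.51, a mean of 0.37 ± 0.15 (SD, n = 4) with an adjusted p of 0.0181 (limma). With dim control spots raised to the lowest control value well above background, the rise was 1.28-fold on the scale with the offset. That fold is not a minimum, as the 95% interval of the log2 ratio began at 0.18. This probe is the weakest call of the 12. It no longer passed without replicate 1 (adjusted p = 0.0740, limma), replicate 3 (0.0508) or replicate 4 (0.0869), and it had -0.17 under median centring (adjusted p = 0.215), while Feature Extraction's ratio was 2.18 (adjusted p = 0.00291). The gap between the probes ran from 1.12 with Feature Extraction's ratios to 3.90 under median centring.

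Ddx58, the sensor of RNA ends carrying a triphosphate, rose on both probes, and both stood below the first Ifih1 probe in log2 ratio on every array. The brighter probe had treated intensities of 7235, 4048, 7369 and 5625, against 1034, 635.5, 644 and 684 in control cells, and log2 ratios of 0.95, 1.06, 0.80 and 0.94. Its mean was 0.94 ± 0.11 (SD, n = 4), a 1.91-fold rise (adjusted p = 0.000904, limma). The dimmer probe had treated intensities of 1037, 651.5, 990 and 978.5, against 101, 88.5, 79 and 91, and log2 ratios of 1.64, 1.38, 1.36 and 1.61. Its mean was 1.498 ± 0.15 (SD, n = 4), a 2.83-fold rise (adjusted p = 0.000224, limma), and with Feature Extraction's ratio it had 2.20 ± 0.20 (SD, n = 4), a 4.59-fold rise. The dimmer probe stood above the brighter one on 4 of 4 arrays, by 0.56 ± 0.17 on average, and by 1.30 with Feature Extraction's ratios but only 0.13 under median centring. Both channels of both probes were well above background on all 4 arrays, and the normalised channel values did not overlap on either.

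Dhx58, which encodes the regulatory helicase LGP2, rose and stood above the dimmer Ddx58 probe in log2 ratio on 4 of 4 arrays, by 0.35 ± 0.15. Treated intensities were 828, 502, 955 and 714, against 60, 51, 61.5 and 57 in control cells, where the probe was well above background on only 1 of 4 arrays. Its log2 ratios were 2.19, 1.75, 1.60 and 1.85, with a mean of 1.85 ± 0.25 (SD, n = 4) and an adjusted p of 0.000345 (limma). The size of this rise differed between processings. The fold was 3.60 in this processing and 15.2 with Feature Extraction's ratio, whose log2 mean was 3.92 ± 0.23 (SD, n = 4, adjusted p = 0.000123, limma).

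**Figure D2:**
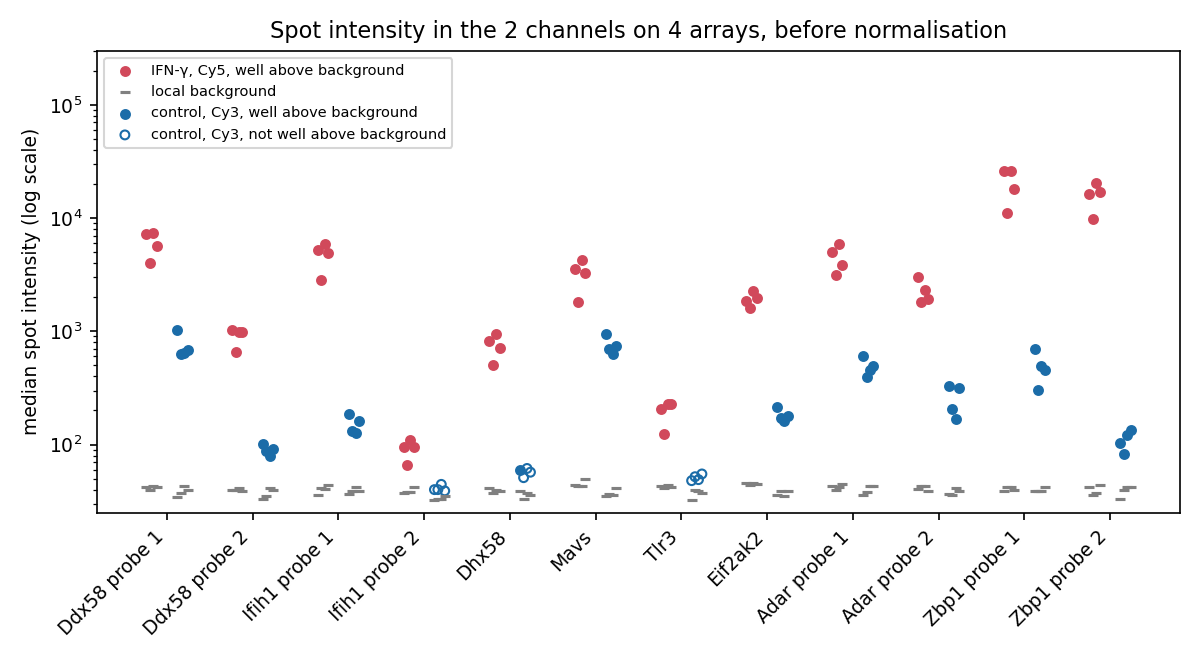
Median spot intensity before normalisation on a log axis, with the treated channel left of the control channel for each of the 12 probes and 1 point per array. Open points are spots not well above background and grey dashes are the local background. Control spots of Tlr3, of the second Ifih1 probe and, on 3 of 4 arrays, of Dhx58 are open, whereas all treated spots are filled.

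Tlr3, the endosomal receptor, was higher in treated cells whereas the control spots were not well above background on any array. Its treated intensities were 206, 124, 227 and 228, against 48, 52, 49 and 55 in control cells. Its normalised channel values did not overlap, which adds no support, as the probe entered the test only through the treated channel. Its log2 ratios were 0.88, 0.58, 0.69 and 0.77, with a mean of 0.73 ± 0.13 (SD, n = 4, adjusted p = 0.00239, limma). The mean ratio corresponds to 1.66-fold on the scale with the offset, with normalised log2 means of 7.28 in treated and 6.55 in control cells. This fold is an estimate and not a lower bound, as the 95% interval of the log2 ratio ran from 0.55 to 0.91. Feature Extraction's ratio had a log2 mean of 2.81 ± 0.34 (SD, n = 4, adjusted p = 0.000604, limma). Under median centring Tlr3 had 0.58, close to the median of 0.50 that this setting gave to all tested probes.

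Mavs, the adaptor through which both signalling helicases act, did not pass. Its treated intensities were 3555, 1821, 4296 and 3265, against 949, 704, 624 and 741 in control cells. Median spots of all probes were also brighter in the treated channel on every array. After loess the ratios were 0.06, -0.21, 0.08 and 0.06, and the mean was 0.00 ± 0.14 (SD, n = 4, adjusted p = 0.979, limma), with a 95% interval of -0.19 to 0.18. The normalised channel values overlapped. With Feature Extraction's ratio it had -0.03. Under median centring, which does not correct for a trend of the ratio with brightness, Mavs had 0.97 (adjusted p = 0.000134, limma), which was 0.47 above the median of tested probes. The first Ifih1 probe, both Ddx58 probes and Dhx58 lay 3.24, 1.42, 1.55 and 1.75 above that median in the same setting. Tlr3 and the second Ifih1 probe lay below Mavs there, at 0.07 and -0.67 relative to the median. All remaining probes lay above Mavs.

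Among the effectors, Zbp1 rose most of the 8 genes. Its second probe had treated intensities of 16220, 9772, 20268 and 17099, against 103, 83, 121 and 135 in control cells. Control spots were only 2.08 to 3.21 times their local background, whereas treated spots were 271 to 548 times theirs. The log2 ratios were 5.22, 5.09, 4.57 and 4.80, with a mean of 4.92 ± 0.29 (SD, n = 4), a 30.3-fold rise (adjusted p = 1.68e-05, limma) and rank 12 of 28921 tested probes. With Feature Extraction's ratio the same probe had 5.75 ± 0.56 (SD, n = 4), a 53.7-fold rise. The first probe, assigned to another RefSeq transcript of the gene, had treated intensities of 25783, 11161, 25766 and 18206, against 704, 306, 497 and 455. Its log2 ratios were 3.32, 3.54, 2.93 and 3.18, with a mean of 3.24 ± 0.26 (SD, n = 4), a 9.48-fold rise (adjusted p = 4.13e-05, limma) and rank 75. Both probes were well above background in both channels on every array. They differed on 4 of 4 arrays, the second being higher by 1.68 ± 0.15, and by 2.40 with Feature Extraction's ratios.

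Eif2ak2, which encodes PKR, rose 2.65-fold. Treated intensities were 1858, 1593, 2251 and 1983, against 213, 172, 163 and 177 in control cells, and the log2 ratios were 1.34, 1.63, 1.17 and 1.495. The mean was 1.41 ± 0.20 (SD, n = 4, adjusted p = 0.000554, limma), with no overlap between the normalised channels. Feature Extraction's ratio, 1.65, was within 0.25 of this value, and the control spots stood at 4.41 to 5.92 times their background.

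Adar rose on both probes by about the same amount. The brighter probe had log2 ratios of 1.19, 1.40, 0.98 and 0.88, with a mean of 1.11 ± 0.23 (SD, n = 4), a 2.16-fold rise (adjusted p = 0.00176, limma). The other probe had 1.38, 1.54, 1.22 and 0.61, a mean of 1.19 ± 0.41 (SD, n = 4) and a 2.27-fold rise (adjusted p = 0.00503, limma). Its SD was the largest of the 12 probes, with replicate 4 lowest. Both channels of both probes were above background on every array, with treated intensities of 1831 to 5841 and control intensities of 169 to 606.5. The gene makes a long, interferon-inducible and a short, constitutive protein, p150 and p110, and the position of the probes on the transcripts is not given in the files, so the ratios cannot be assigned to either form.

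Ordered by mean ratio in the processing with the offset, the probes ran from Zbp1 (probe 2, then probe 1) through Ifih1 probe 1, Dhx58, Ddx58 probe 2, Eif2ak2, Adar probe 2, Adar probe 1, Ddx58 probe 1, Tlr3 and Ifih1 probe 2 to Mavs. Of the 11 pairs of neighbours, 7 kept their order on all 4 arrays. With 4 arrays the smallest two-sided p of an exact sign-flip test is 0.13, which adjusted over the 11 pairs was 0.196, so no step could pass. Control spots of Dhx58, Tlr3 and Ifih1 probe 2 were well above background on 1, 0 and 0 of 4 arrays. The places of these probes differed between processings. With Feature Extraction's ratios Dhx58 (3.92) stood above Zbp1 probe 1 (3.34) and Ifih1 probe 1 (3.30), so its step of 0.99 ± 0.22 below Ifih1 probe 1 turned round. Likewise Tlr3 (2.81) then stood above Ddx58 probe 2 (2.20), Eif2ak2 (1.65) and both Adar probes (1.30 and 1.15). The second Zbp1 probe was highest and Mavs lowest with both ratios. Mavs was not lowest under median centring, where its 0.97 exceeded Tlr3 (0.58) and Ifih1 probe 2 (-0.17). The steps from Ddx58 probe 2 to Eif2ak2 (0.09 ± 0.24), from Eif2ak2 to Adar probe 2 (0.22 ± 0.45) and between the Adar probes (0.08 ± 0.24) were smaller than their SD, so these probes had no settled order. For the 4 genes with a pair of probes, the exact test between the probes gave 0.13 for Ddx58, Ifih1 and Zbp1 and 0.625 for Adar (0.167 and 0.625 adjusted over the 4 pairs).

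The arrays moved these probes to differing degrees. The lowest of the 4 ratios fell on replicate 3 for 7 of the 12 probes, on replicate 2 for 3 and on replicate 4 for 2. The highest fell on replicate 1 and on replicate 2 for 5 probes each and on replicates 3 and 4 for 1 each. Replicate 3 also had the brightest treated channel, with a median of 264, and the dimmest control channel, with 79.8. The part of that imbalance in the lower ratios was not tested. The median of the 12 probes was 1.36, 1.47, 1.20 and 1.22 on replicates 1 to 4.

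**Figure D3:**
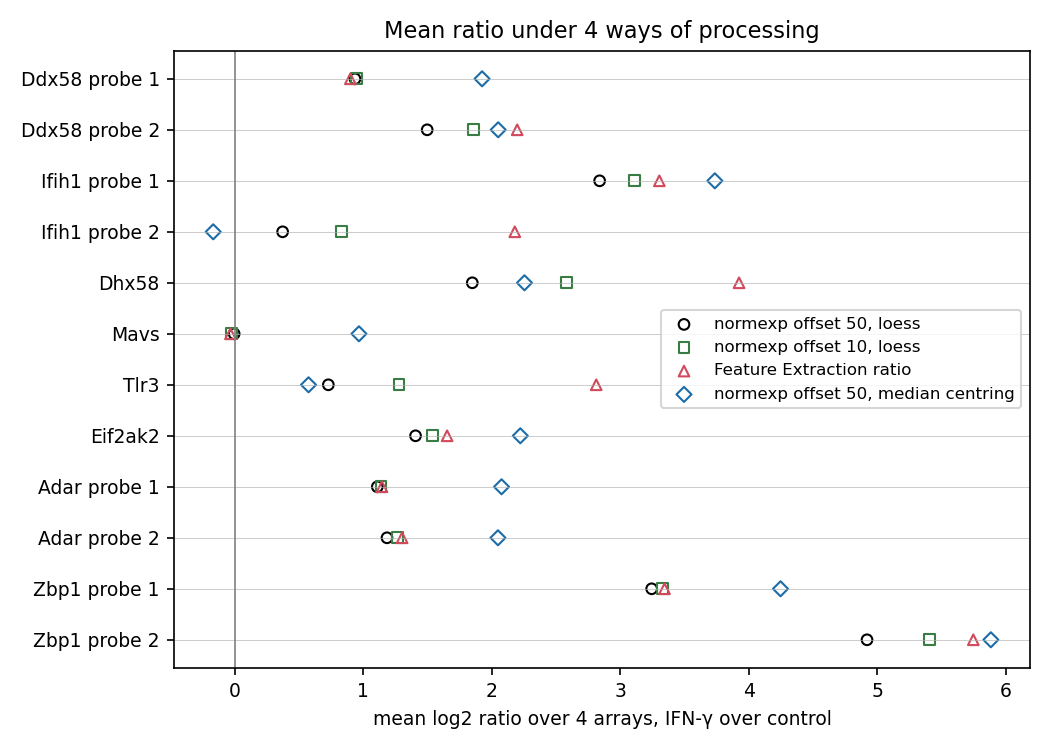
Mean log2 ratio over 4 arrays (x axis) of each probe (y axis) under 4 ways of processing the same spots. The ratio of dim probes such as Dhx58, Tlr3 and Ifih1 probe 2 differs most between settings, 1.85 against 3.92 for Dhx58, and median centring moves Mavs to 0.97 and Ifih1 probe 2 to -0.17.

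For each gene, the other gene whose ratios were nearest over the 4 arrays was sought among 15602 genes with a value on every array, by the root mean square difference of their brightest probes. The interferon-induced antiviral gene Ifit1 was nearest to Zbp1 (difference 0.20, mean 3.27), the interferon-inducible GTPase gene Gm12250 to Ifih1 (0.14, mean 2.95) and the MHC class II gene H2-Ab1 to Dhx58 (0.09, mean 1.78). Fgf7 was nearest to Eif2ak2 (0.05), Pdpn to Adar (0.09), Vegfc to Ddx58 (0.05), Med30 to Tlr3 (0.03) and Pitx3 to Mavs (0.01). Over 4 arrays such likeness is a description of size and noise, and many genes lie near the smaller ratios.

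The partners of the 8 genes had a lower median ratio than the 12 probes. In 6 lists of pathway genes, some of them in more than 1 list, 34 of 90 tested genes rose, 7 fell and the rest did not pass, judged by the brightest probe of each, against 18.8% of all tested genes higher and 12.9% lower. The median over these 90 genes was 0.17, against 0.03 over all 15673 tested genes. These counts depended on which array was left out: 22 rose and 4 fell without replicate 1, 42 and 13 without replicate 2, 16 and 4 without replicate 3 and 18 and 4 without replicate 4. Median centring gave 81 higher and 2 lower. Some of these genes entered the test only through the treated channel. Keeping only probes well above background in both channels on every array gave 32 higher and 7 lower.

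Of 18 tested cofactors of the helicase sensors, 9 rose, 2 fell and 7 missed the threshold. Their median was 0.29. Nlrc5, best known as the transactivator of MHC class I genes and also described as a modulator of RIG-I signalling, rose by 4.50 ± 0.19 on its brightest probe (adjusted p = 8.76e-06, limma) and by 0.71 on its second. Mex3c, a ubiquitin ligase reported to act on RIG-I, rose by 0.86 ± 0.44 but did not pass without replicate 1 (adjusted p = 0.0532, limma) or replicate 4 (0.0625). Dhx15, another RNA helicase, rose by 0.83 ± 0.08, and Trim25, the ligase that modifies the RIG-I signalling domain, by 0.44 ± 0.08 (chosen after its value was seen). The 2 that fell were Cyld, a deubiquitinase that restrains RIG-I signalling, at -0.77 ± 0.33, and Nlrx1, a mitochondrial protein reported to restrain MAVS, at -0.53 ± 0.10, both also named after their values were seen. The brightest gene that did not pass, Ywhae, a 14-3-3 protein that carries RIG-I to the mitochondrion, had -0.21 ± 0.11, and passed without replicate 2 at -0.24 (adjusted p = 0.0374, limma).

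Of 25 genes that carry the MAVS and TLR3 signals towards interferon, 8 rose, 1 fell and 16 missed the threshold. Their median was 0.18. Irf7, the inducible transcription factor of type I interferon genes, rose by 1.61 ± 0.30 (adjusted p = 0.00107, limma) and was the only 1 of the 25 at least 2-fold higher. Its control spots were well above background on only 2 of 4 arrays, so it entered the test through the treated channel. Feature Extraction's ratio for Irf7 was 3.29, so the size of this rise differed between processings. Ripk1, an adaptor kinase, rose by 0.76 ± 0.15. Ikbkb, a kinase of the NF-kappaB pathway, rose by 0.52 ± 0.23, but its adjusted p was 0.0531, 0.0782 and 0.0753 without replicates 1, 3 and 4 and 0.0521 with Feature Extraction's ratios (limma). Rela, the NF-kappaB subunit gene, was the 1 that fell, at -0.34 ± 0.08 (named after its value was seen). The brightest that did not pass was Traf2, with -0.12 ± 0.17. The TLR3 adaptor gene Ticam1 had -0.29 ± 0.30 and the constitutive factor gene Irf3 had -0.18 ± 0.09, neither past the threshold.

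Of 11 interferon genes on the array only 6 were bright enough to test, 1 of which passed, as lower, while 5 missed the threshold. Their median was 0.11. Ifnb1, the gene that the helicase pathway induces first, was not well above background often enough to be tested. Ifnl3 had -0.27 ± 0.09 (adjusted p = 0.0276, limma), with -0.09 on its second probe. It did not pass without replicate 1 (0.104), 3 (0.129) or 4 (0.0831), and it turned to 0.45 under median centring. Ifna11 had -0.69 ± 0.87 and passed without replicate 2 at -1.07 (adjusted p = 0.00316, limma). The Ifna genes are near-identical copies, so probes may read more than 1 of them.

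Of 19 genes around PKR and its substrate, 4 rose, 2 fell and 13 missed the threshold. Their median was 0.12. These counts were close to the shares over all tested genes, 18.8% higher and 12.9% lower. The kinase gene Eif2ak1, which encodes another kinase of the same substrate, rose by 0.40 ± 0.18, but not without replicate 1 (adjusted p = 0.0798, limma), 3 (0.0674) or 4 (0.0510). Eif2b4, a subunit of the exchange factor of eIF2, had -0.46 ± 0.05 and Ppp1r15a, which guides the phosphatase of eIF2 alpha, had -0.42 ± 0.26, and both passed. Ppp1r15a did not pass without replicate 1 (0.104), 3 (0.0547) or 4 (0.111), and both genes were higher under median centring, at 0.55 and 0.58. Eif2s2, the brightest that did not pass, had 0.12 ± 0.16, while its second probe was called lower at -0.45.

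Of 15 genes of RNA editing and other double-stranded RNA binding, 6 rose, 1 fell and 8 missed the threshold. Their median was 0.24. Stau1 rose by 0.86 ± 0.27 and Stau2 had -1.05 ± 0.31 (adjusted p = 0.00389, limma), both genes of RNA transport proteins, but their second probes had 0.04 and 0.08, and Stau2 had -0.09 under median centring. Cdkn2aip rose by 0.72 ± 0.16. Adarb1, the gene of the second editing enzyme, rose by 0.38 ± 0.11, well under Adar in this scale (named after its value was seen). Drosha, the brightest that did not pass, had -0.21 ± 0.19, and passed without replicate 2 at -0.30 (adjusted p = 0.00923, limma).

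Of 12 genes around ZBP1 in cell death, 8 rose and 4 missed the threshold. Their median was 0.72. The protease genes Casp1 and Casp8 rose by 2.11 ± 0.34 (adjusted p = 0.000524, limma) and 1.05 ± 0.23, and Gsdmd, whose product forms membrane pores once cleaved, by 1.07 ± 0.35. Ripk3 and Mlkl, the kinase and the executioner of necroptosis downstream of ZBP1, rose by 0.38 ± 0.12 and 0.94 ± 0.05 and were named after their values were seen. Cflar, an inhibitor of caspase-8, had -0.51 ± 0.44 on its brightest probe and 0.17 and 0.10 on the others, and the first passed without replicate 2 at -0.72 (adjusted p = 0.00100, limma).

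**Figure D4:**
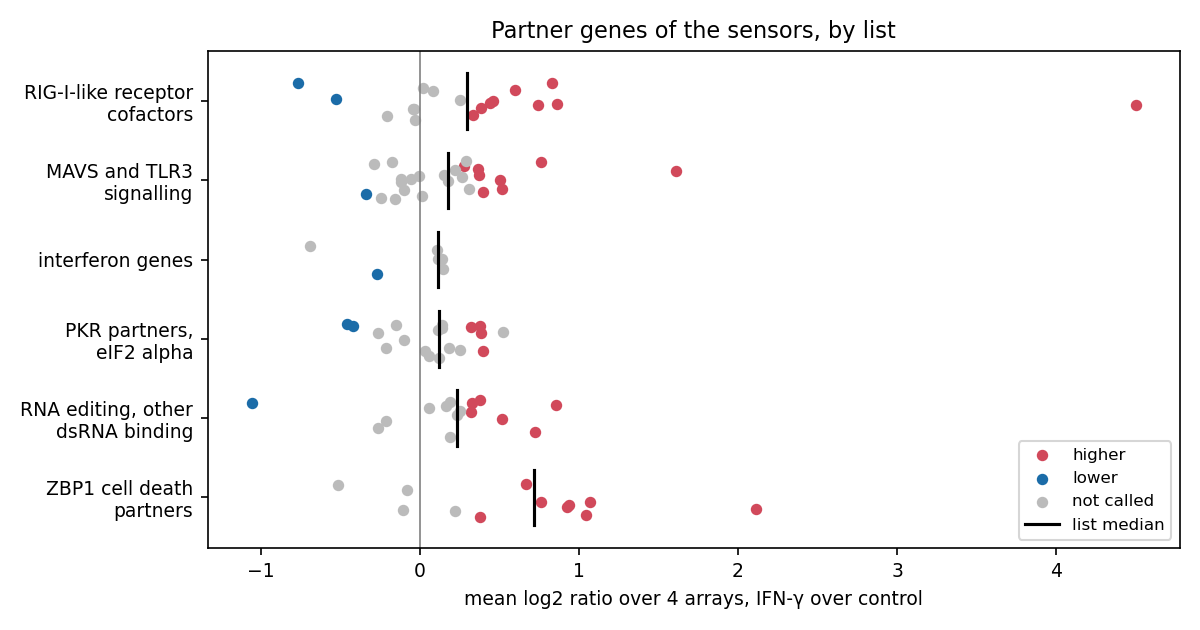
Mean log2 ratio over 4 arrays (x axis) of each tested partner gene, by its brightest probe, in 6 lists (y axis), with called genes in red (higher) and blue (lower), other genes in grey and the list median as a black bar. The median is 0.72 for the cell death partners of ZBP1 and between 0.11 and 0.29 for the other 5 lists, and the point at 4.50 is Nlrc5.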

How the data were processed

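Total RNA (8 µg) of treated and control cells was measured on 4 two-colour arrays. Per the file headers, the authors scanned them with Feature Extraction 10.7.3.1, and the deposited files hold median spot and background intensities, processed intensities, log10 ratios of Cy5 over Cy3 and flags. The authors' deposited value table is in log2 units, per the design text from GeneSpring GX. On the tested probes it followed the scanner ratios with a slope of 3.32 per log10 unit and correlations of 0.9995 or more, so its direction is Cy5 over Cy3. Its column medians were -0.109, -0.116, -0.125 and -0.105, and its centring is unknown.

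Here median intensities were corrected by normexp (offset 50) and loess within arrays in limma 3.58.1 (R 4.3.3), with control spots at weight 0 and outlier spots left out. Probes were named through RefSeq accessions (13374 had no symbol). A probe was tested when well above background in 1 channel on at least 3 arrays, against 0 and two-sided, with Benjamini-Hochberg adjustment at 0.05. Normalised channel values came from Aquantile normalisation. On simulated ratios with these spreads (28921 probes), 22%, 76% and 92% of log2 changes of 0.5, 1 and 2 were recovered. Only 50 probes were changed at each size, against 4778 called higher and 3633 called lower in the data. The adjusted threshold was therefore stricter in the simulation, and these shares do not give the recovery in the data. The number of arrays limits precision. The genes, lists and tests were chosen with earlier results of these data known. Named partners are, per list, up to 3 called genes with the largest change and the brightest that did not pass.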

Additional observations from a re-analysis of the deposited data

Results flagged for a closer look

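Of 35 probes and genes whose 4 arrays were compared with each other, 3 had 1 array far from the rest, and chance alone flags about 1 in 20. The Mavs ratio on replicate 2 was -0.2126, against 0.06 to 0.08 on the other arrays. The Nlrc5 ratio on replicate 1 was 4.7892, with the next array at 4.41. Drosha had 0.0746 on replicate 2, against -0.32 to -0.27 on the others.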

How the results depend on the processing

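Both Zbp1 and both Adar probes, the first Ifih1 probe, the second Ddx58 probe, Dhx58 and Eif2ak2 kept their direction and call under every alternative that tested them. Of the 12 probes, 10 or 11 stayed higher without any 1 replicate. With the brightest probe per gene, 7 of 8 were called, and all genes gave 3111 higher and 2173 lower. Without each replicate in turn, all probes gave 1913 to 6331 higher and 1151 to 5546 lower, and partner genes 16 to 42 higher and 4 to 13 lower.

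Median centring put the median of tested probes at 0.50 and gave 16438 higher and 6357 lower (72.1% of calls higher, against 56.8%), 81 and 2 partner genes, a median of 2.06 over the 12 probes, -0.17 for Ifih1 probe 2, 0.97 for Mavs, 0.45 for Ifnl3, 0.55 for Eif2b4 and 0.58 for Ppp1r15a. The probe differences became 0.13 for Ddx58, 3.90 for Ifih1 and -0.028 for Adar. With Feature Extraction's ratios, and likewise with the authors' table, the median over the 12 probes was 2.19 and the probe differences were 1.30 for Ddx58, 1.12 for Ifih1 and 2.40 for Zbp1. An offset of 10 gave 0.91, 2.28 and 2.08, and no background correction gave 2.26 for Ifih1. The cause of these shifts was not tested.

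The methods' test, unpaired with a 2-fold minimum, has no replicate block. It called 411 probes higher and 241 lower, 5 and 1 partner genes, and 8 of the 12 probes. The main fit is itself paired, since each ratio sets the 2 channels of an array against each other. The labels give 1 group of samples, and no other pairing was used. Allowing 1 letter of the ISRE core to differ gave 6 windows with a match instead of 3. The size of the Dhx58, Tlr3 and second Ifih1 ratios, whose control spots were dim, differed between processings and is uncertain.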
